A study of Mus musculus with 4 samples.

Results

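Monocyte and macrophage-like cells made up 994 of the 22916 barcodes that passed the cell filters, or 4.34%, in marrow sorted for the surface phenotype of haematopoietic stem and progenitor cells. A barcode was counted as such a cell when the 7 genes Fcgr4, Ms4a7, Adgre4, Ear2, C1qa, C1qb and C1qc together held at least 0.1% of its unique molecular identifiers (UMIs, each standing for 1 captured transcript) and the granule protease genes Elane, Prtn3 and Ctsg together held under 0.5%. Barcodes needed at least 1000 detected genes and at most 10% mitochondrial UMIs. The cells were thus chosen by the measured values of these 7 and 3 genes, which are given below as a description.

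The study deleted the histone methyltransferase genes Mll3 (Kmt2c in the annotation) and Mll4 (Kmt2d), alone and together, and sorted CD45.2+ cells lacking lineage markers and carrying Sca1 and Kit (the LSK gate) from mouse bone marrow 10 weeks after transplantation. Transcripts and 6 surface proteins (CD150, CD48, CD201, CD135, CD117 and CD34, read through DNA-barcoded antibodies) were counted in the same cells with the 10x Genomics 3' version 3.1 chemistry. The 4 libraries are labelled control, Mll3 deleted, Mll4 deleted and Mll3/4 deleted, with 1 library per genotype. The labels give neither the deleting allele, the number of mice behind a library nor the genotype of the control beyond that word. With 1 library per genotype no difference between genotypes could be tested, and every 95% interval below covers counting error alone.

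Monocytes and macrophages are mononuclear phagocytes that depend on the growth factor receptor Csf1r. Patrolling monocytes stay along the vessel wall, depend on the transcription factor Nr4a1 and carry the Fc receptor Fcgr4, whereas resident marrow macrophages clear dead cells, recycle iron from red cells and make C1q, the first component of the classical complement pathway. C1q is built from the products of C1qa, C1qb and C1qc, and the lysozymes Lyz1 and Lyz2 are bacterial cell wall hydrolases.

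The C1q genes lie side by side on the minus strand of chromosome 4 (GRCm38; C1qa at chr4:136895917-136898803, C1qc at chr4:136889804-136893065, C1qb at chr4:136880129-136886187). Bases before the start sites of C1qb (chr4:136886201-136886450) and C1qc (chr4:136893066-136893164) are shown because C1q transcripts divided the cells, and those of Lyz1 (chr10:117292869-117293118) and Lyz2 (chr10:117282322-117282522) because Lyz1 differed far more between libraries than its neighbour Lyz2. Windows of 250 bases before the RefSeq start sites were searched. Of the C1qc and Lyz2 windows, 151 and 49 bases lie inside the GENCODE gene spans given here, whose starts differ from RefSeq's, and are not printed. All 4 stretches are on the minus strand, were read from RefSeq on GRCm38.p6 and are written 5′ to 3′ along the gene, with capitals marking matches, on either strand, to GAGGAA (the core bound by the myeloid factor PU.1) or TGCTGA (a half-site of the MAF factors).
C1qb: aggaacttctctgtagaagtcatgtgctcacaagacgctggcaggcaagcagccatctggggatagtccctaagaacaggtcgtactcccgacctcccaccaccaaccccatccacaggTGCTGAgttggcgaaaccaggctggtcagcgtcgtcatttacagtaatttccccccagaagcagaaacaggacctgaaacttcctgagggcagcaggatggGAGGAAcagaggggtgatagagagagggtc
C1qc: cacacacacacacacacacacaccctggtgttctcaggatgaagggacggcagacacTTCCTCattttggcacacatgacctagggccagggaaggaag
Lyz1: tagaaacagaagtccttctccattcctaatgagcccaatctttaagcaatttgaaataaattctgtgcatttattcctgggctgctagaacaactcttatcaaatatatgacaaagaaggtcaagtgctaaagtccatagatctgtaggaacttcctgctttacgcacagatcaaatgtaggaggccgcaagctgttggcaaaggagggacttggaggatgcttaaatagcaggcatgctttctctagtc
Lyz2: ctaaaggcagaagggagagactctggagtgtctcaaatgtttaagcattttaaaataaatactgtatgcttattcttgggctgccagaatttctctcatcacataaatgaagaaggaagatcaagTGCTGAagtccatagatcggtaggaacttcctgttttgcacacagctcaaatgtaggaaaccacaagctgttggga
The C1qb window held GAGGAA beginning 30 bases and TGCTGA beginning 131 bases before the start site. The C1qc window held GAGGAA on the opposite strand (beginning 193 bases before the start site), where it reads TTCCTC, and the Lyz2 window held TGCTGA, beginning 125 bases before the start site, while neither motif was found in the Lyz1 window. Of 32851 promoter windows of the same length, 23.3% held GAGGAA and 16.1% held TGCTGA, so single matches are common. The Lyz1 and Lyz2 windows were identical at 200 of 252 alignment columns (79.4%), gaps included, with 248 columns free of gaps. For C1qb and C1qc the match was 129 of 292 columns (44.2%), with 208 free of gaps.

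The cells were found almost entirely in 1 library. In the library labelled Mll4 deleted, 958 of 4793 cells belonged to them, or 19.99% (95% Clopper-Pearson interval 18.9 to 21.1). The control library held 16 of 7274 (0.220%, 0.126 to 0.357), the Mll3-labelled library 17 of 6101 (0.279%, 0.162 to 0.446) and the library labelled for both deletions 3 of 4748 (0.0632%, 0.0130 to 0.185). The share in the Mll4-labelled library was 90.9 times that of the control (55.7 to 160) and 71.7 times that of the Mll3-labelled library (44.6 to 124). The ratio to the control depended on the rule: it was 53.7 with the 7 genes at 0.05% of UMIs and 139 without the sub-clusters led by other lineages that are described below. The Mll3-labelled library, at 1.27 times the control, had an interval of 0.602 to 2.68 and could not be told from it at this depth.

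**Figure D1:**
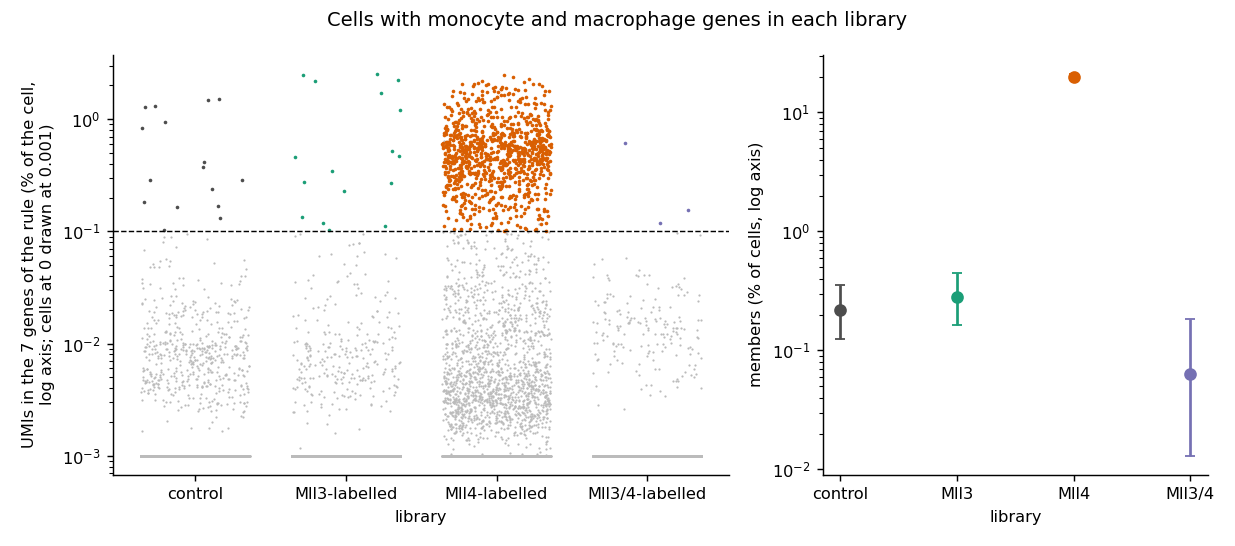
Left, the percent of each cell's UMIs in the 7 genes of the rule on a log axis, with 1 point per cell, the cells of the population coloured and the 0.1% limit dashed; right, the population as percent of cells on a log axis, with 95% Clopper-Pearson intervals that cover counting error only. The Mll4-labelled library stands at 19.99%, against 0.220% in the control, 0.279% in the Mll3-labelled library and 0.0632% in the library labelled for both deletions.

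The 4 libraries had 5136 to 7702 deposited barcodes and 50792614 to 120700343 UMIs in the cells that passed. The Mll4-labelled library lost 2634 barcodes to the gene minimum, against 224 to 280 in the others, so its denominator was the most reduced. The label of that library could not be checked on RNA: Kmt2d stood at 20.6 CPM (counts scaled to a common total of UMIs, as used throughout) in its cells outside the population, against 24.6 in the control and 25.4 in the library labelled for both deletions, and counts at the 3' end need not cover a deleted stretch. Kmt2c was lower in the Mll3-labelled library (35.2 against 68.9 CPM). In the population itself Kmt2d was counted at 41.2 CPM in the Mll4-labelled library and at 36.5 CPM, from 5 UMIs, in the control. Barcode sequences shared between libraries touched 2 of the 958 cells, and neither counterpart was such a cell.

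Near the limit, between 0.08% and 0.12% of UMIs, the Mll4-labelled library had 27 barcodes just outside and 23 just inside, the control 5 and 1, and the Mll3-labelled library 3 and 3. For libraries with 16 and 17 such cells these are large shares. In 45.7% of the cells of the Mll4-labelled library none of the 7 genes was counted, against 92.6% in the control. Cells with only 1 or 2 UMIs of these genes numbered 1374 and 438. The median cell that passed had 21400 and 14454 UMIs, and the part of depth in these shares was not tested. The granule protease limit left out 5 barcodes of the Mll4-labelled library.

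The names were checked against genes that the rule did not use. Csf1r was detected in 93.6% of the population in the Mll4-labelled library and in 23.3% of its other cells. After thinning every cell to 3000 UMIs these shares were 75.2% and 5.21%. In the control, Csf1r was detected in 15 of 16 of these cells, and in the Mll3-labelled library in 15 of 17, against 1.42% and 1.48% of the other cells. Kit, the stem cell factor receptor on which the gate was set, was detected in 29.3% of the population and 95.2% of the other cells of the Mll4-labelled library (17.1% and 57.9% after thinning). The median cell of the population had 9329 UMIs and the median other cell 26220 in that library.

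The 3 cells of the library labelled for both deletions did not carry the name well. They held 22, 17 and 17 C1q UMIs, but 2 of them fell with cells rich in stem cell genes and 1 with cells rich in erythroid genes. The phagocyte oxidase gene Cybb was not counted in them. They are counted here by the rule and take no part in what follows.

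Within the population, C1q divided the cells. In the Mll4-labelled library 355 cells (37.1%, 33.99 to 40.2) had at least 3 UMIs of the C1q genes, here called C1q-positive, and 603 had fewer. The distribution had few cells between: 458 cells had no C1q UMI, 145 had 1 or 2, 49 had 3 to 9 and 306 had at least 10. The control held 14 C1q-positive cells and 2 C1q-negative ones, and the Mll3-labelled library 13 and 4. The share of all cells that were C1q-positive was 38.5 times the control's (22.6 to 71.1) in the Mll4-labelled library, and for C1q-negative cells the ratio was 458 (126 to 3787), a value that rests on 2 control cells.

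The 7 genes of the rule varied in 2 sets across the 958 cells of the Mll4-labelled library. Because the rule selects on their sum, a cell low in 1 set has to be high in the other, and the negative values below are in part built in. Shares of C1qa, C1qb and C1qc varied together from cell to cell (Spearman's rho 0.84 to 0.86, a description over cells of 1 library). Ms4a7, a tetraspan membrane protein of macrophages, went with them (0.63 with C1qb). Fcgr4, the adhesion receptor gene Adgre4 and the eosinophil-type ribonuclease gene Ear2 formed the other set, with rho between 0.56 and 0.61 among themselves, and Ear2 ran against C1qb (-0.49) and Ms4a7 (-0.63).

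Levels by group are a description, because the groups were set by C1q UMIs. C1q-negative cells entered the population mostly through the other genes of the rule, so the gaps in rule genes are in part built in. C1qb stood at 1787 CPM in the C1q-positive and 11.96 CPM in the C1q-negative cells of the Mll4-labelled library. Fcgr4 (chr1:171018920-171029761) stood at 977 CPM in the first and 1883 in the second, and Ear2 at 318 and 1009. C1qb was detected in 9.95% of C1q-negative cells, which by definition have fewer than 3 C1q UMIs, and in 9.73% of the deeper cells outside the population; after thinning to 3000 UMIs the shares were 4.44% and 1.74%.

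**Figure D2:**
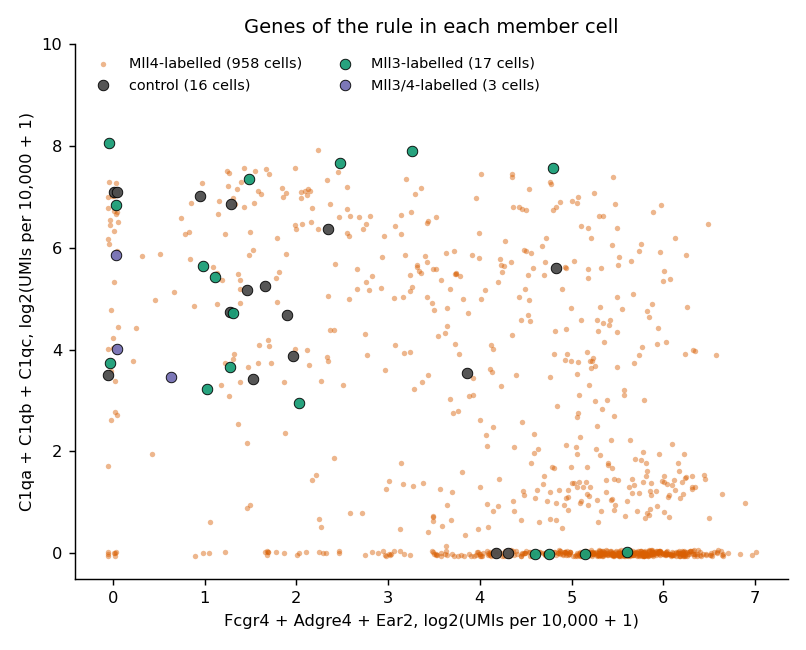
Each point is 1 cell of the population, placed by its summed Fcgr4, Adgre4 and Ear2 level (horizontal) and its summed C1q level (vertical), both as log2 of UMIs per 10000 plus 1 and slightly jittered, with colours for libraries. Most C1q-negative cells of the Mll4-labelled library lie at the lower right, while 14 of 16 control cells and 13 of 17 cells of the Mll3-labelled library are C1q-positive.

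Across the 3233 genes with at least 50 CPM in either sum, 98 were at least 2-fold higher in C1q-positive than in C1q-negative cells of the Mll4-labelled library (3.03%) and 126 at least 2-fold lower (3.9%). The median log2 ratio over all of them was -0.03. The balance depended on the processing: there were 193 higher and 165 lower with every cell thinned to 3000 UMIs, 186 and 159 with each cell of equal weight, and 161 and 153 without the sub-clusters led by other lineages. C1q-positive cells were deeper, with a median of 13514 UMIs against 7300, and the part of depth in these ratios was not tested beyond those thinned sums. A gene under 50 CPM in 1 sum was measured only through the sum in which it is higher, so the counts of each list below are a description. Gm42418, an unnamed gene that overlaps ribosomal RNA, took 79533 CPM of the C1q-positive and 91349 of the C1q-negative sum, against 17667 in the other cells of the library.

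Genes of resident macrophages stood higher in the C1q-positive cells. All 10 measured of the 15 on that list were past 2-fold, with a median log2 ratio of 1.81. The summed list was uneven over the sub-clusters described below. It was at 14160 CPM in sub-cluster 3, 4603 in sub-cluster 1, 1951 in sub-cluster 5 and 534 in sub-cluster 0. Vcam1, an adhesion molecule of marrow macrophages, was at 644 against 119 CPM (log2 ratio 2.43, 2.32 to 2.55). Of its 3756 UMIs in C1q-positive cells, 1943 lay in the 76 such cells of sub-cluster 3. The mannose receptor gene Mrc1 was at 591 against 152 CPM, and Axl, a receptor for dying cells, at 271 against 61.1. The transcription factor gene Maf, which shapes macrophage identity, was also past 2-fold (942 against 321 CPM).

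Some genes of iron and dead-cell handling were also higher. Of 11 measured genes of iron and haem recycling, 4 were past 2-fold higher, none lower, and the median was 0.66. Slc40a1, the iron exporter ferroportin, stood at 129 against 14.95 CPM (log2 ratio 3.104, 2.79 to 3.44), and Trf, which encodes transferrin, at 181 against 39.7. Spic, a factor of iron-recycling macrophages, was at 64.3 against 27.9. Of 10 measured genes of efferocytosis and lipid handling 5 were past 2-fold higher, 2 were below 0, and those higher included the scavenger receptor gene Stab1 (197 against 39.7 CPM) and Apoe (1275 against 412). Slc40a1, Stab1 and Trf were concentrated in sub-cluster 3, described below. They stood there at 543, 1060 and 753 CPM, against 35.2, 39.9 and 70.1 in the other cells of the population. Of the 7442 Apoe UMIs in C1q-positive cells, 3601 lay in the 76 such cells of that sub-cluster.

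Antigen presentation and secreted factors differed too. Of 7 measured MHC class II genes, 6 were past 2-fold higher, with H2-Aa at 6608 against 2964 CPM and Cd74, the invariant chain, at 10616 against 5283. With edgeR's TMM scaling Cd74, Ciita and H2-DMa came just under 2-fold, at 0.95, 0.99 and 0.96 (log2 ratio). Ccl8, a monocyte-attracting chemokine, had the highest ratio of the named genes outside the rule (550 against 30.9 CPM, log2 ratio 4.15, 3.94 to 4.37). Only 93 of the 355 C1q-positive cells held a Ccl8 UMI. Of the 3207 UMIs, 2555 lay in the 76 C1q-positive cells of sub-cluster 3, described below. Pf4 and Cxcl9, both chemokines, had log2 ratios of 2.60 and 2.37. Pf4 was also concentrated in sub-cluster 3 (530 CPM, against 35.2 in the other cells of the population). Of 8 measured complement genes, C3ar1, Cfp and Cd93 were past 2-fold higher. Lysosomal genes differed by less: 0 of 16 passed 2-fold, with 15 above 0 and a median of 0.52.

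Genes of patrolling monocytes stood higher in the C1q-negative cells. Of 14 measured, 9 were at least 2-fold lower in the C1q-positive cells and none higher (median log2 ratio -1.67). C1q-negative cells passed the rule mostly through Fcgr4, Adgre4, Ear2 or Ms4a7, so genes that vary with these can be higher there by selection. The part of that selection was not tested. Ace, the angiotensin-converting enzyme gene, was at 17.8 against 130 CPM (-2.86, -3.18 to -2.57). Itgal, the integrin subunit by which monocytes crawl, was at 54.3 against 254, and Nr4a1 at 47.5 against 174. Pglyrp1, a bacterial peptidoglycan receptor, was at 35.6 against 214.

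Factors and receptors divided between both sides. Among 14 measured myeloid transcription factors, those past 2-fold higher included Maf and the lipid sensor Nr1h3, and Cebpb, Klf4, Klf2 and Nr4a1 were past 2-fold lower. Spi1, which encodes PU.1, differed little (348 against 417 CPM). Csf1r was at 425 against 578 and Cx3cr1, the fractalkine receptor gene, at 369 against 362. Of 8 classical monocyte genes only Fn1 passed 2-fold, and it was lower (72.8 against 222 CPM). Fn1 was concentrated in sub-cluster 8, described below, with 18 cells of which 4 were C1q-positive. It stood there at 3460 CPM, against 36.4 in the other cells of the population. Lyz1 did not follow the division, at 629 against 608 CPM, while Lyz2 was at 6743 against 11189.

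**Figure D3:**
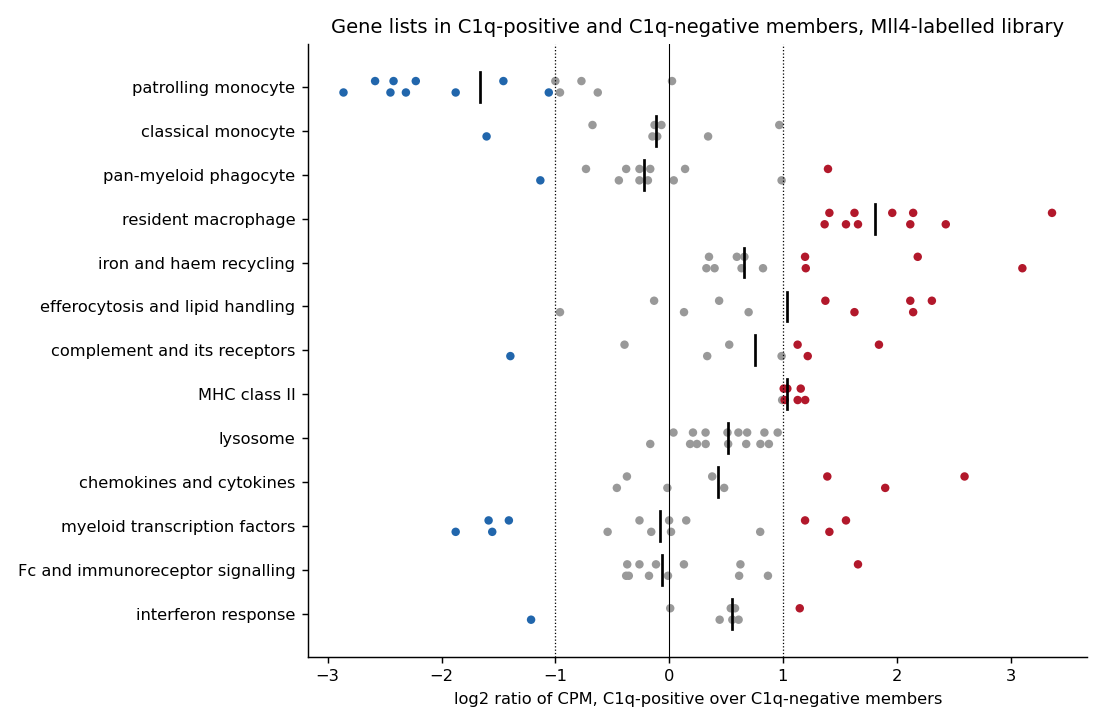
Log2 ratio of C1q-positive over C1q-negative cells of the Mll4-labelled library for the measured genes of each list, with 1 point per gene, the list median as a vertical bar, 2-fold bounds dotted, and genes past 2-fold in red (higher) or blue (lower). Resident macrophage genes centre on 1.81 and patrolling monocyte genes on -1.67, against -0.03 over all 3233 genes. The part of the selection by the rule and by C1q in these medians was not tested.

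Markers of other lineages were present in the sums. Summed mast cell genes were at 2081 CPM in the population of the Mll4-labelled library against 1771 in its other cells, and at 51.1 in the control's population with 9 of 10 at 0. Neutrophil genes were at 5522 against 6085, B and plasma cell genes at 6666 against 9600, and stem cell genes at 785 against 1413. Erythroid genes were at 6480 against 552, and few cells carried them: 99.3% of the Hbb-bs UMIs lay in the top 5% of cells, and the list reached 168480 CPM in the 20 cells of sub-cluster 7, described below. The neutrophil list reached 257485 CPM in the 6 cells of sub-cluster 9. Igkc, an immunoglobulin chain gene, was detected in 97.8% of the population and 97.7% of the other cells. Their part in the ratios above was not tested, apart from the counts without 4 sub-clusters led by such genes: 161 genes were then past 2-fold higher. In that setting Adgrg1, a stem cell gene, and Mcpt8, a basophil gene, changed sign, to -0.25 and -0.82.

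The genes whose share ran most closely with the summed C1q share from cell to cell were, outside the rule, Axl (Spearman's rho 0.61), Mrc1 (0.61), Maf (0.58) and Aif1 (0.58). Tmem176a, Tmem176b, Vcam1, Marcks, H2-Eb1 and H2-Aa followed, down to 0.52. These were the 10 highest of 4478 genes detected in at least 25% of the 958 cells, all from 1 library, and the C1q share itself ran with UMIs per cell at 0.34.

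Sub-clustering the 994 cells gave 10 groups, whose leading genes are a description because the groups were made from them. Sub-cluster 0, with 332 cells, was patrolling monocyte-like: 12 of 15 genes of that list were raised at least 2-fold over the other cells, led by Ceacam1 (314 against 27.3 CPM). Only 7 of its cells were C1q-positive. Sub-cluster 3, with 89 cells, was resident macrophage-like, with 13 of 15 list genes raised, and 84 of its cells were C1q-positive. Its Ccl8 stood at 2918 CPM against 66.7, and the haemoglobin scavenger receptor gene Cd163 at 133 against 3.20.

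The other sub-clusters stayed unnamed. Sub-cluster 1, with 193 cells of which 142 were C1q-positive, was led by Slfn1 (101 against 16.7 CPM) and Lyz1 (1579 against 279). The MHC class II gene H2-Eb1 (9579 against 2306) was also among its top 10 genes. Summed MHC class II genes were at 47562 CPM in it, but also at 42175 in sub-cluster 8 and 38873 in sub-cluster 3. Of 10 classical monocyte genes, 3 were also raised in sub-cluster 1 (Ly6c2, Ccr2 and F13a1), each detected in at least 50% of its cells. Sub-cluster 5, with 53 cells of which 49 were C1q-positive, had the lipase gene Lipg (519 against 9.58 CPM) and Cd72 ahead. Sub-cluster 8 (18 cells, 4 C1q-positive) had 3 classical monocyte genes raised: Ccr2, Fn1 and S100a4. Sub-cluster 2 (161 cells) was led by the immunoglobulin joining chain gene Jchain and came wholly from the Mll4-labelled library, so it may be that library rather than a type. Few cells carried that gene: over the population of the library its median was 0 UMIs, 94.8% of its UMIs lay in the top 5% of cells, and 8 cells had it at 1% of UMIs or more. Of the 3 B and plasma cell markers raised in the sub-cluster, 1 was detected in at least 50% of its cells, so it was not counted as led by another lineage.

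Genes of other lineages led sub-clusters 4, 6, 7 and 9 (mast cell, stem cell, erythroid and neutrophil genes, with 74, 48, 20 and 6 cells). They took in 131 of the 958 cells of the Mll4-labelled library, 7 of 16 in the control, 7 of 17 in the Mll3-labelled library and all 3 of the library labelled for both deletions. Sub-cluster 6 had a median of 26178 UMIs per cell, and Scrublet, which scores barcodes for holding more than 1 cell, marked 22 of its 48 cells among the highest-scoring. Without these sub-clusters the share was 17.3% in the Mll4-labelled library, 0.124% in the control and 0 in the library labelled for both deletions.

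**Figure D4:**
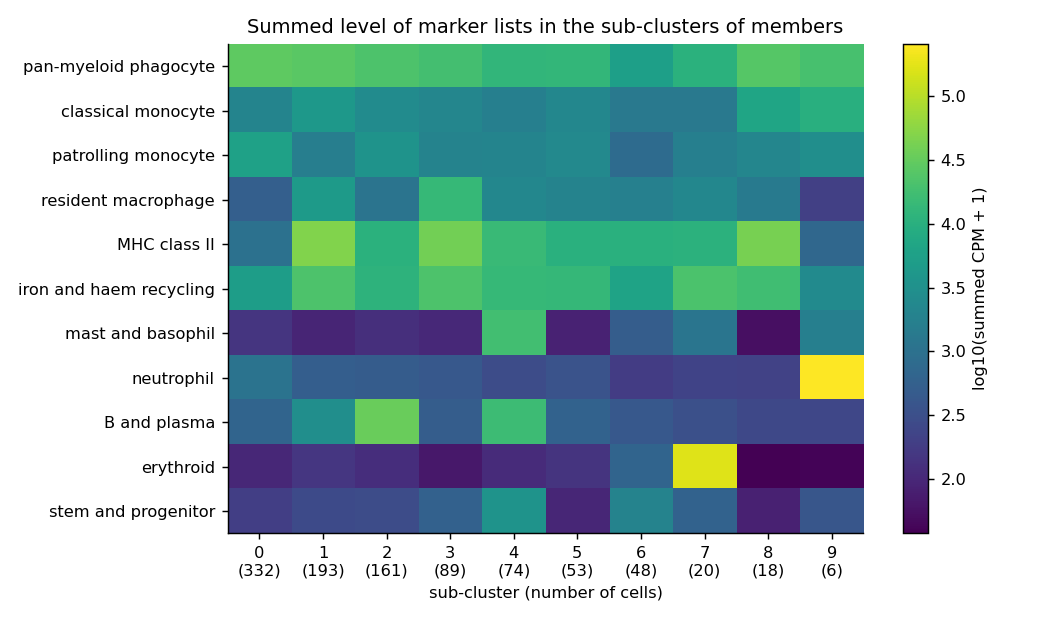
Summed level of marker lists (vertical) in the 10 sub-clusters of the population (horizontal, with their numbers of cells), coloured by log10 of the summed CPM plus 1. The patrolling monocyte list is at 5864 CPM in sub-cluster 0, MHC class II genes at 47562 in sub-cluster 1 and mast cell genes at 17820 in sub-cluster 4. MHC class II genes are also at 42175 CPM in sub-cluster 8 and 38873 in sub-cluster 3.

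C1q-positive cells numbered 14, 13 and 355 in the control, Mll3-labelled and Mll4-labelled libraries, and their sums were compared over genes with at least 200 CPM. These comparisons share their control cells. From the control to the Mll4-labelled library 99 of 719 genes were at least 2-fold higher (13.8%) and 100 lower (13.9%); from the control to the Mll3-labelled library 57 of 767 were higher (7.43%) and 44 lower (5.74%). Between the Mll4-labelled and Mll3-labelled libraries 137 of 818 were higher (16.7%) and 152 lower (18.6%). With 13 or 14 cells on 1 side, a single cell weighs heavily. In the sub-cluster led by stem cell genes fell 7 of the 14 control cells and 7 of the 13 Mll3-labelled ones. Without the sub-clusters led by other lineages, 195 genes were higher and 172 lower from the control to the Mll3-labelled library. Those counts rest on 7 control and 6 Mll3-labelled cells, with 49051 and 34120 UMIs, and the part of counting error in them was not tested.

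The C1q genes define these cells, and their levels are given as a description. C1qa was at 2267 CPM in the control, 2244 in the Mll3-labelled and 1798 in the Mll4-labelled library, and C1qc at 1220, 1233 and 1185. The patrolling set differed: Fcgr4 was at 86.0, 148 and 977 CPM, and Ear2 at 70.4, 40.4 and 318. Ms4a7 was at 414, 256 and 1084.

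Apoe, the apolipoprotein that macrophages secrete with exported cholesterol (chr7:19696109-19699188), was lower in the Mll4-labelled library. It stood at 8763 CPM in the C1q-positive cells of the control, 7212 in those of the Mll3-labelled library and 1275 in those of the Mll4-labelled library, a log2 ratio to the control of -2.78 (-2.87 to -2.69). Per 10000 UMIs of a cell, the control ranged from 2.79 through a median of 33.2 to 417, and the Mll3-labelled library from 3.41 through 52.8 to 463. The Mll4-labelled library ranged from 0 through 1.17 to 270.

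The ranges overlapped, but 203 of the 355 cells (57.2%) lay below the lowest control cell and 60 (16.9%) at or above the control median. The gap was also seen within sub-clusters, on few cells. In sub-cluster 3 Apoe was at 21495 CPM in 3 control cells, 27033 in 5 cells of the Mll3-labelled library and 4265 in 81 cells of the Mll4-labelled library. In sub-cluster 0 it was at 5813, 11507 and 164 CPM, from 2, 4 and 326 cells. Cells outside the population differed in the same direction by less, at 91.2 CPM in the Mll4-labelled library against 315 in the control. Without the sub-clusters led by other lineages the log2 ratio was -2.66.

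Lyz1 (chr10:117287797-117292868) went the other way. No Lyz1 UMI was counted in the 14 control cells, and 1 Mll3-labelled cell held 4. The Mll4-labelled library had 3671 over 111 of 355 cells (31.3%). Against a floor of 3 UMIs over the control group, Lyz1 was at least 26.8-fold higher. Within the Mll4-labelled library it was concentrated in sub-clusters 1 (1586 CPM) and 8 (1944), against 50.5 in the resident macrophage-like cells. Sub-cluster 1 held 2 control, 0 Mll3-labelled and 191 Mll4-labelled cells of the population, and sub-cluster 8 held 1, 0 and 17. The part of this mix in the Lyz1 ratio was not tested. Cells outside the population also differed, at 11.9 against 0.0755 CPM.

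Its neighbour Lyz2 (chr10:117277331-117282321) did not differ beyond counting error between C1q-positive cells of the Mll4-labelled library and the control (log2 ratio 0.09, -0.01 to 0.20). It stood at 6316 CPM in the control and 6743 in the Mll4-labelled library, but lower, at 4051, in the Mll3-labelled library. The last 300 bases of the longest coding transcripts of the pair were 93.8% identical, and 195 of 1214 stretches of 50 bases in Lyz1 (16.1%) also occur in Lyz2, so the division of reads between them is uncertain. Ear2 also belongs to a family of near-identical genes and its count carries the same limit.

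Some other phagocyte genes were higher in the C1q-positive cells of the Mll4-labelled library. Of 11 measured pan-phagocyte genes, 4 were past 2-fold higher than in the control, 7 stayed within 2-fold and none was lower past it (median log2 ratio 0.48). Ctss, a lysosomal protease gene, was at 844 CPM in the control, 822 in the Mll3-labelled and 2425 in the Mll4-labelled library, and Cybb at 422, 384 and 1195. The C1q-positive cells of each library fell in different sub-clusters. In sub-cluster 3 alone, with 3, 5 and 76 C1q-positive cells, Ctss was at 738, 2473 and 2666 CPM and Cybb at 689, 756 and 1364, so for Ctss the Mll3-labelled cells stood near the Mll4-labelled ones there. Of 10 measured Fc receptor and immunoreceptor signalling genes, 6 were past 2-fold higher and none lower. Over all 719 genes, 13.8% were past 2-fold higher and 13.9% lower. Neither list as a whole was compared between libraries within sub-clusters, so the part of their mix in these counts was not tested. MHC class II genes stayed within 2-fold of the control in 6 of 6, with 5 above 0 and a median log2 ratio of 0.50. H2-Aa was at 3721 CPM in the control and 6608 in the Mll4-labelled library.

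Genes of other cells stood among the extremes of the same comparison. Jchain, Cpa3, Cma1 and Mcpt4 (plasma and mast cell genes) had no UMI in the control cells and 5449, 4047, 3413 and 1303 in the Mll4-labelled library. Among the lowest were Ctla2a (log2 ratio -3.23) and Sox4 (-2.98), both expressed in stem and progenitor cells. Their part in the other differences was not tested.

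Cycling genes were lower in the population than in the other cells of the control, Mll3-labelled and Mll4-labelled libraries. The S phase list summed to 565 CPM in the population of the Mll4-labelled library against 1984 in its other cells, and the G2M list to 402 against 2370. In the control these sums were 511 against 2224 and 474 against 2110. In the Mll3-labelled library the G2M list was at 408 against 2442, while the S phase list was closer, at 1539 against 2550.

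On the cell surface, the population carried less CD34 and CD117 and more CD48 and CD201 than the other cells of its own library. Antibody counts were expressed as a centred log ratio (natural log of the count over the geometric mean of the cell's 6 antibodies, with 1 added). CD34, a progenitor antigen, differed by -1.30 in the control, -1.21 in the Mll3-labelled and -1.06 in the Mll4-labelled library between population and other cells. Its median counts, in the same order, were 41 against 171, 117 against 272 and 41 against 123. In the Mll4-labelled library 841 of 958 cells lay below the median of the other cells, as did 15 of 16 in the control and 12 of 17 in the Mll3-labelled library.

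CD117, the Kit protein on which cells were sorted, differed by -0.96, -0.88 and -0.52 in the same order. Its median count in the Mll4-labelled library was 116 against 187, so the population was low within the gate but not without signal. CD48, a leukocyte adhesion protein absent from the most primitive stem cells, had medians of 1631.5 against 697.5 in the control, 3493 against 267.5 in the Mll3-labelled and 2601 against 1663 in the Mll4-labelled library. The differences were 1.11 (-0.58 to 1.39), 1.94 and 0.35, and the interval of the control includes 0. High CD48 was shared with the cells rich in granule protease genes, whose centred log ratio was 3.39, 3.25 and 3.37 in the 3 libraries, against 3.23, 2.71 and 3.32 in the population. CD201, the endothelial protein C receptor, differed by 0.82, 0.81 and 0.66. The stem cell antigen CD150 differed by 0.23, -0.82 and 0.16 and the receptor CD135 by 0.28, 0.09 and 0.24. Counted per 1000 antibody counts of a cell, CD150 in the control and both proteins in the Mll4-labelled library changed sign.

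The other cells of the Mll4-labelled library held more UMIs, as given above. Against 571 other cells of matched UMI number, the medians were 2601 against 1962 for CD48, 116 against 142 for CD117, 41 against 42 for CD34 and 56 against 29 for CD201. In centred log ratio a gap remained for CD34 (-0.75 in the population against -0.55 in matched cells) and for CD117 (0.25 against 0.70). Antibody totals per cell were also higher in the population (2969 against 2256 in that library). Within that population, C1q-positive cells had lower CD117 than C1q-negative ones by centred log ratio, at 0.14 (0.08 to 0.20) against 0.29 (0.26 to 0.34), although their median count was higher (132 against 110). CD34 was at -0.79 against -0.73 and CD48 at 3.35 against 3.31, with overlapping intervals, and CD201 at -0.37 against -0.45.

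**Figure D5:**
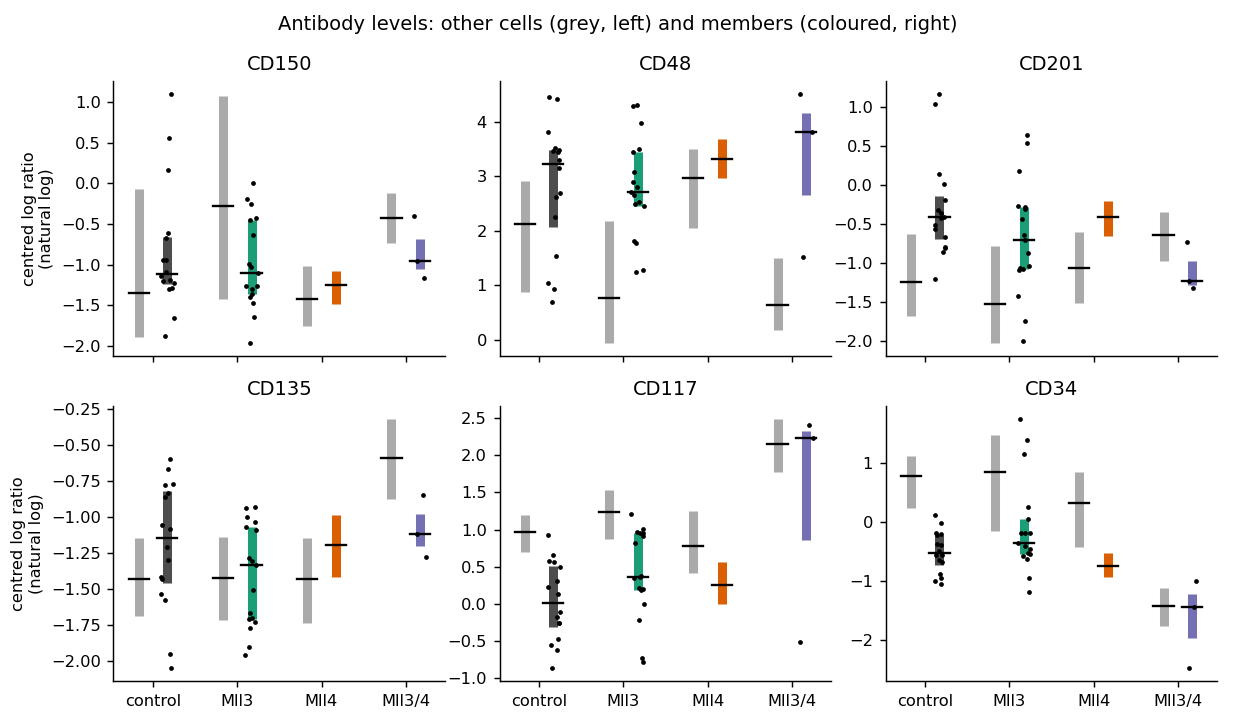
Surface antibody levels of the population and of the other cells in each library, as centred log ratio in natural log units, with grey bars for the other cells and coloured bars for the population spanning the middle 50% of cells, lines at the medians, and points for single cells in the 3 libraries with few. CD34 and CD117 of the population lie below the other cells in the control, Mll3-labelled and Mll4-labelled libraries, and CD201 above them.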

How the data were processed

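Raw UMI counts per gene and antibody in 4 libraries were made by the authors with Cell Ranger 6.1.1 on mm10, per the submitters' processing notes, and used as deposited; how barcodes were selected before deposit is not given in the sources used here. The total was 27080 barcodes, 32285 genes and 6 antibodies. Members and gene lists were chosen with earlier results of these data known. Counts were summed over cells and divided by the summed total (CPM); log2 ratios added 0.5 UMI, and their intervals are exact conditional binomial. Genes needed 50 CPM in either sum within the Mll4-labelled library and 200 CPM between libraries. The planned comparison of all members between libraries required 20 members a library and could not be made; that of C1q-positive members was chosen after seeing the data, as were the rules for sub-clusters (named from phagocyte lists alone, with at least 3 markers raised 2-fold and 2 among the top 10 genes; counted as led by another lineage with at least 3 of its markers raised, each in at least 50% of cells, and 1 among the top 10) and the settings without other-lineage sub-clusters, without Gm42418, thinned before summing and at 400 CPM. Text names, from each comparison, genes among the 10 highest and 10 lowest log2 ratios (at least 100 CPM and 30 UMIs), plus genes of the lists. Sub-clusters used 2000 variable genes, 20 components, 15 neighbours and Leiden resolution 0.6 (scanpy 1.11.5, leidenalg 0.10.2). Scrublet scores were used as an alternative, removing the top 0.8% per 1000 barcodes; the main counts keep all barcodes. The summing and 2-fold script was tested on simulated data. Promoter windows came from RefSeq on GRCm38.p6 and gene coordinates from GENCODE M21 on GRCm38, which matched 99.6% of gene identifiers. Other tools were python 3.11.15, numpy 2.4.6, scipy 1.17.1, pandas 2.3.3, matplotlib 3.10.9, biopython 1.88 and edgeR 4.0.16 for TMM scaling only.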

Additional observations from a re-analysis of the deposited data

How the results depend on the processing

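No paired analysis was possible because each genotype has 1 library and no test was made. Of the values that answer a comparison, 198 alternatives stayed within the spread or 1.5 times, 46 moved and 3 changed sign; of the named genes, 916 stayed on their side of 2-fold, 27 came under it and 2 changed sign (Adgrg1 -0.25 and Mcpt8 -0.82, without other-lineage sub-clusters). With the 7 genes at 0.05% of UMIs the shares were 0.399% (control), 0.508% (Mll3-labelled) and 21.4% (Mll4-labelled); the last was 17.9% at 0.2%, 18.4% with granule genes below 0.1%, and 17.3% without other-lineage sub-clusters, where the control was at 0.124% and the library labelled for both deletions at 0. C1q-positive shares were 100% in the control at 0.2%, and in the Mll4-labelled library 52.2% at 1 C1q UMI, 31.9% at 10 and 31.7% thinned. Genes higher in C1q-positive cells numbered 156 at 0.2%, 161 without other-lineage sub-clusters, 186 with each cell of equal weight, 193 with thinned sums, 187 at 20 CPM, 29 at 200 CPM and 2620 with no minimum; lower ones 192, 43 and 1798 in the last 3 settings. Between libraries, at 400 CPM, higher and lower counts were 45 and 51 (Mll4-labelled against control), 12 and 13 (Mll3-labelled against control) and 72 and 58 (Mll4-labelled against Mll3-labelled); without other-lineage sub-clusters they were 195 and 172 for the second, and 235 lower for the third. Antibody differences in the Mll4-labelled library, at 500 genes and 20% mitochondrial UMIs, were 0.127 (CD150), 0.439 (CD48), 0.612 (CD201), -0.471 (CD117) and -0.966 (CD34); at 1500 genes and 5% they were 0.139 (CD150), 0.403 (CD48) and 0.586 (CD201), with CD135 at -0.287 in the Mll3-labelled library; without other-lineage sub-clusters they were 0.405 (CD48), 0.688 (CD201), 0.272 (CD135), -0.576 (CD117) and -1.09 (CD34). Per 1000 antibody counts of a cell, CD150 was -6.25 in the control and -0.535 in the Mll4-labelled library, and CD135 there -0.439. Resolution 0.3 gave 5 sub-clusters. The cause of these changes was not tested. Depth limits what 14 control and 13 Mll3-labelled C1q-positive cells can show.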

Other observations

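Interferon and immediate early genes were not described above. Of 8 measured interferon response genes, Rsad2, an antiviral enzyme gene, was past 2-fold higher in C1q-positive than in C1q-negative cells of the Mll4-labelled library (78.1 against 35.2 CPM), and Ifitm3, which blocks viral entry, was lower (674 against 1562 CPM). The median log2 ratio of the list was 0.55. Of 7 measured immediate early genes, Ier2 and Btg2 were past 2-fold lower and none higher, with a median of -0.62. Cxcr4, the receptor for the marrow-retaining chemokine Cxcl12, was at 36.5 against 81.2 CPM, the one of 11 measured chemokine and growth factor receptors past 2-fold.

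The 2 C1q-negative cells of the control entered through Fcgr4, Adgre4 and Ear2, and held 8 UMIs of Ace, a patrolling monocyte gene that the rule does not use. Lpl, the lipoprotein lipase gene, was at 742 against 547 CPM in C1q-positive and C1q-negative cells of the Mll4-labelled library, and at 195 CPM in the C1q-positive cells of the control.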
